A study of Mus musculus with 8 samples.

Results

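The genes described here make up the route by which brown adipose tissue (BAT) takes fatty acids from the blood: 10 genes for lipoprotein lipase, its partners and the proteins that carry fatty acids into and through the cell. They were chosen by name, as Lpl, Lmf1, Gpihbp1, Angptl4, Vldlr, Cd36, Slc27a1, Slc27a4, Fabp4 and Fabp3, and each name matched 1 of the 56953 genes of the count table. BAT was taken from C57BL/6J wild-type mice, male or female and 8 to 10 weeks old, housed at 21 °C. In the cancer-associated cachexia group (CAC, n = 4) 3000000 LLC cells, the Lewis lung carcinoma line, were injected under the skin in 100 µL of PBS, in the control group (CTR, n = 4) PBS was injected alone, and all mice were followed for 21 days. The study kept in the CAC group only mice in which a tumour grew, and the labels do not give the sex of each mouse. There was 1 RNA library per mouse, and the comparison asks how the tumour-bearing state alters the transcripts of this tissue.

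Lipoprotein lipase, the product of Lpl, cuts the triglycerides of circulating lipoproteins on the capillary wall. Lmf1 helps the enzyme to fold in the endoplasmic reticulum, Gpihbp1 carries it across the endothelial cell and holds it at the capillary lumen, and Angptl4 inactivates it. The fatty acids set free enter the cell with the help of Cd36 and of the transport proteins of the Slc27a family, and are bound in the cytosol by Fabp3 and Fabp4. In cold-exposed rodents BAT is one of the tissues that clears the most triglyceride from the blood by this route.

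Libraries held 1823167 to 4827956 counts, of which the 10 genes took 0.578 to 0.766%. Levels are counts per library size (CPM), scaled by TMM (trimmed mean of M values), and are given as mean ± SD. A count of 0 would allow a level of up to 3 counts, or 0.621 to 1.65 CPM, and all 10 genes lay well above it in every library. The BAT label was checked against 11 brown adipocyte markers, all of which were tested, and their sum ran from 13798 to 15939 CPM in CTR and from 13628 to 17131 CPM in CAC. Of these 11, 8 were higher and 3 lower in CAC, with 2 and 3 at an unadjusted p under 0.05 (all genes, 12.9% in either direction), and Ppargc1a, a coactivator of thermogenic genes, passed the test (higher), as did 0.739% of all genes. Markers of several other cells were also higher in CAC. The sums of macrophage markers, at 205 to 232 CPM in CTR against 286 to 399 CPM in CAC (7 of 7 tested higher, of which C1qa and C1qb passed), and of neutrophil markers, at 6.12 to 6.92 against 165 to 432 CPM, did not overlap between the groups. Of the 10 neutrophil markers 7 were too low to be tested, and the 3 that were, S100a8, S100a9 and Retnlg, reached the filter through CAC, so that no count of calls is drawn from them. S100a8 (3.57 and 175 CPM) and S100a9 (1.60 and 73.5 CPM) made up 93.1% of the sum in CAC. The sums of skeletal muscle markers, at 1489 to 3584 against 3235 to 5828 CPM (12 of 12 higher, of which Actn3 passed), overlapped. Their means were 2376 CPM in CTR and 4712 CPM in CAC, and 8 of the 12 were higher at an unadjusted p under 0.05 (all genes, 7.01%). The sums of erythrocyte markers, at 6180 to 19269 against 14637 to 44327 CPM (6 of 6 tested higher), overlapped too. The erythrocyte marker Slc4a1 (0.615 CPM in CTR and 8.39 CPM in CAC) likewise reached the filter through CAC, so no call is drawn from it. Fibroblast and progenitor markers, at 537 to 682 against 504 to 740 CPM (5 of 9 higher, of which Ly6a passed), and smooth muscle and pericyte markers, at 166 to 180 against 133 to 181 CPM (4 of 8 higher, 0 passing), also overlapped. No gene of these lists was at 0 in every library, and their part in the results below was not tested. In bulk tissue, fewer cells of a type and less RNA per cell cannot be told apart.

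None of the 10 genes passed the test between CAC and CTR. The test was edgeR's quasi-likelihood test over 9876 genes, adjusted by Benjamini and Hochberg's method, in which 92 genes (0.932%) had an adjusted p under 0.05 and 0 of the 10 did. The DESeq2 and limma fits called 0 of the 10 as well. At an unadjusted p under 0.05 there were 2 of the 10, Gpihbp1 and Slc27a1, both higher in CAC, beside 12.9% of all genes in either direction and 7.01% on the higher side. The same 2 genes were those whose CAC and CTR libraries did not overlap, beside 7.04% of all genes, or 3.64% with CAC above CTR. Of the 10, 6 had a fold change above 0 and 4 below it, with a median log2 fold change of 0.07 (all genes, −0.00) and a median absolute value of 0.16 (all genes, 0.17).

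How large a change these data leave room for is given by the intervals. The 95% interval of the fold change lay within 2-fold either way for all 10 genes and within 1.5-fold for 7 of them, and the median half-width was 0.27 on the log2 scale (all genes, 0.42). The plot of fold changes shows the interval of each gene.

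**Figure D1:**
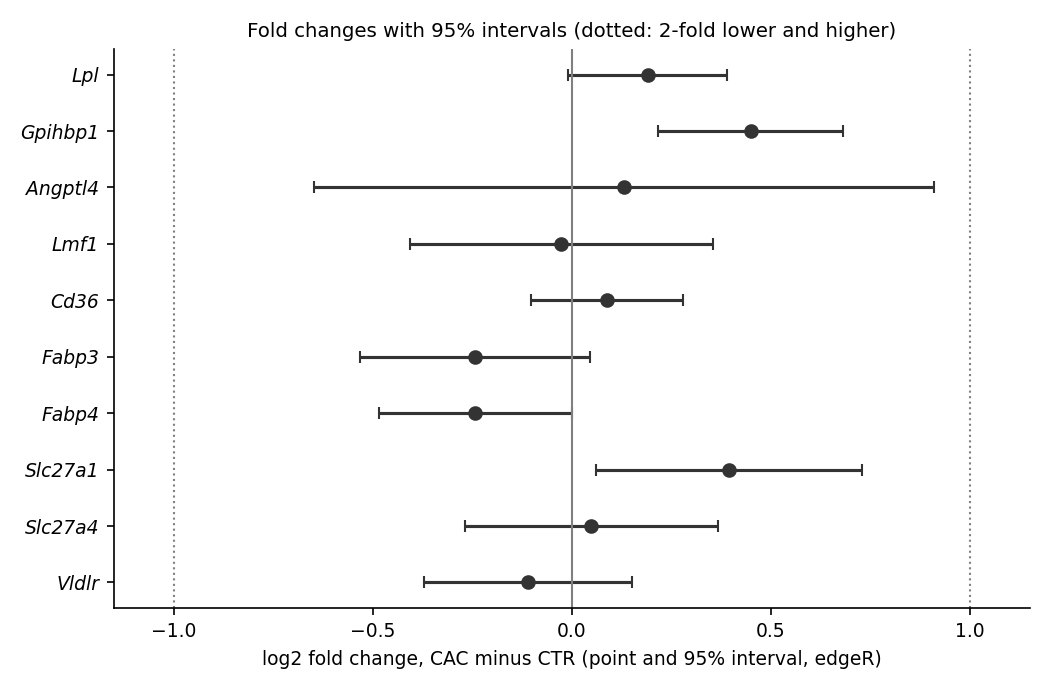
The x axis gives the log2 fold change of CAC over CTR for each of the 10 genes, with the edgeR estimate as a point and its 95% interval as a bar. All 10 intervals lie inside the dotted lines at 2-fold, and those of Gpihbp1 (0.22 to 0.68) and Slc27a1 (0.06 to 0.73) do not reach 0.

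The levels of the 10 genes spanned a wide range, which per kilobase of the coding transcript ran in CTR from 4223 CPM per kb for Fabp4 down to 6.56 CPM per kb for Slc27a1. Between these lay, in order, Fabp3 (566 CPM per kb), Lpl (552), Cd36 (90.2), Gpihbp1 (78.0), Angptl4 (35.8), Vldlr (10.6), Lmf1 (9.77) and Slc27a4 (7.74). Steps that the CTR libraries did separate were those from Fabp4 to the next gene, from Lpl to Cd36, from Gpihbp1 to Angptl4 and from Angptl4 to Vldlr. Neighbours whose library ranges overlapped were Fabp3 and Lpl, Cd36 and Gpihbp1, Vldlr and Lmf1, Lmf1 and Slc27a4, and Slc27a4 and Slc27a1. The division by length assumes that reads come from the whole transcript, which the sources used here do not state for this library type, a service named Digital mRNA-seq. Without it the CTR means ran from Fabp4 (3784 CPM) through Lpl (2273), Fabp3 (466), Cd36 (307), Angptl4 (118), Vldlr (84.3), Gpihbp1 (64.3) and Slc27a4 (31.4) to Slc27a1 (18.35) and Lmf1 (18.2). Fabp4 stood first in both orders. Gpihbp1 stood above Angptl4 and Vldlr, and Fabp3 above Lpl, only with the division, so these places rest on the assumption. The place of Fabp3 also rests on a count that is described below with that of Zcchc17. Those counts were nearly equal although the genes share 81 of the 823 exon bases of Fabp3. Where along the transcripts the reads lie was not tested.

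**Figure D2:**
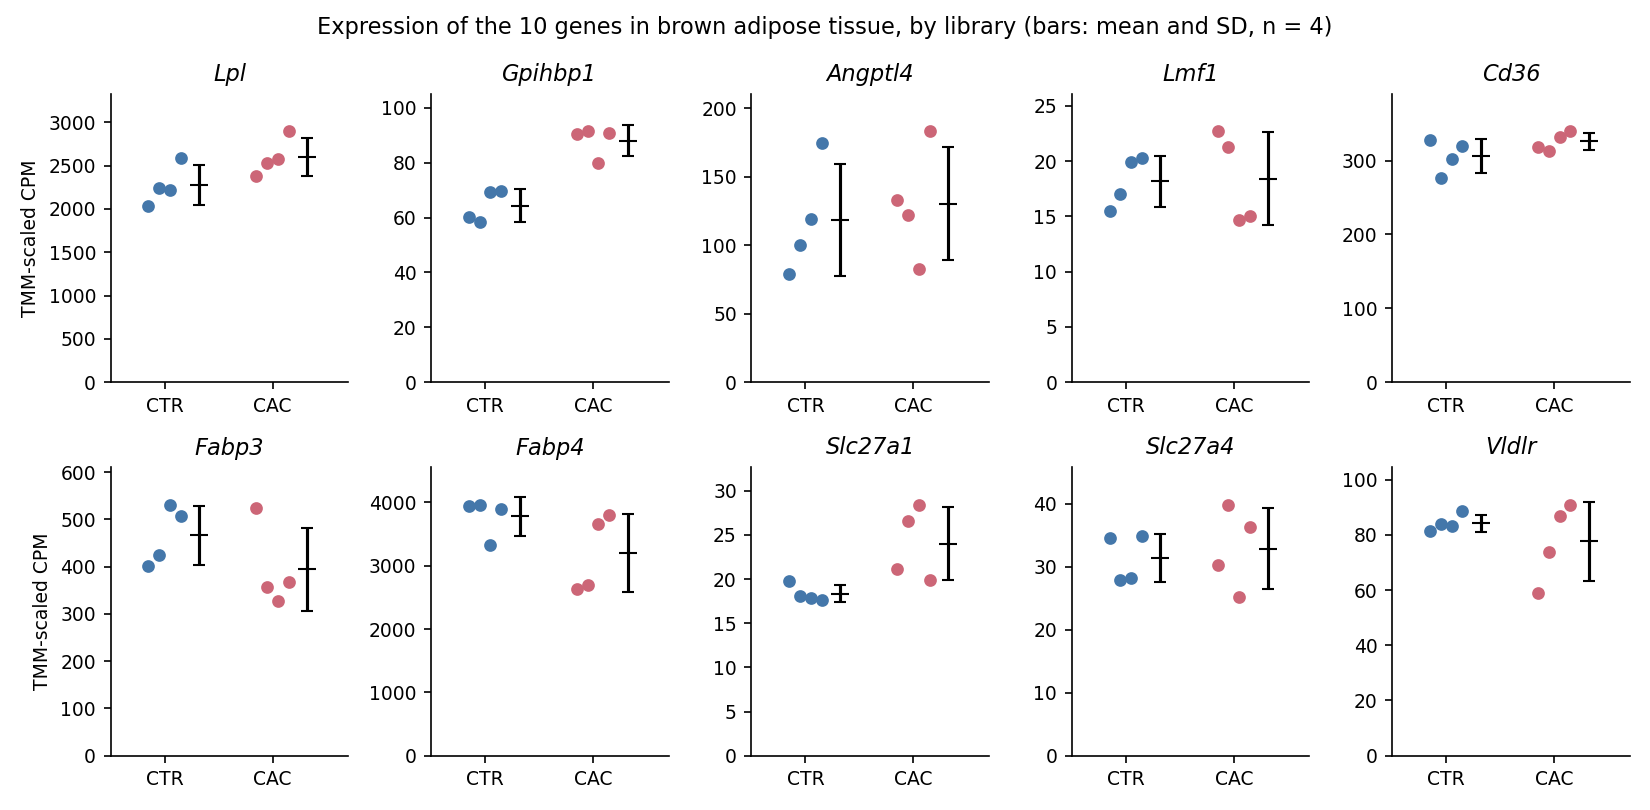
Each panel gives 1 gene, with the TMM-scaled CPM of the 4 CTR and 4 CAC libraries as points on an axis that starts at 0, and the mean and SD beside them. Gpihbp1 and Slc27a1 are the panels in which the CAC points all lie above the CTR points, by a wide gap for Gpihbp1 and by almost none for Slc27a1 (19.87 against 19.79 CPM).

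Lpl (ENSMUSG00000015568.17, chr8:68880491-68907448 of GRCm38, plus strand), the lipase itself, was at 2036, 2245, 2221 and 2590 CPM in CTR replicates 1 to 4 and at 2375, 2528, 2575 and 2898 CPM in CAC replicates 1 to 4. The groups overlapped because CTR replicate 4 stood above 3 of the CAC libraries, while the other CTR libraries lay below all CAC libraries. The means were 2273 ± 231 and 2594 ± 220 CPM (SD, n = 4), which differed by 0.19 on the log2 scale with a 95% interval of −0.01 to 0.39 (edgeR adjusted p = 0.415).

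Lmf1 (ENSMUSG00000002279.20, chr17:25579085-25662826, plus strand), the maturation factor of the lipase, was at 15.47, 17.05, 19.92 and 20.28 CPM in CTR and at 22.70, 21.27, 14.65 and 14.99 CPM in CAC. CAC replicates 1 and 2 lay above every CTR library and CAC replicates 3 and 4 below every one, so that the means were nearly equal (18.2 ± 2.31 and 18.4 ± 4.18 CPM). These levels rest on 40 to 92 counts per library, for which counting alone gives a coefficient of variation of 13.8%. The fitted log2 fold change was −0.03, opposite in sign to the small difference of these means, with a 95% interval of −0.41 to 0.35 on both sides of 0 (edgeR adjusted p = 0.974).

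Gpihbp1 (ENSMUSG00000022579.11, chr15:75596628-75599481, plus strand), the endothelial anchor of the lipase, came closest to the threshold of the 10. Its coding sequence is shown because it codes for the acidic stretch that this protein is known for and that takes part in binding the lipase. The run covers coding bases 40 to 171, counted from 1 at the A of the start codon, and capitals mark in-frame codons that begin with GA, all of which code for aspartate or glutamate.
Gpihbp1: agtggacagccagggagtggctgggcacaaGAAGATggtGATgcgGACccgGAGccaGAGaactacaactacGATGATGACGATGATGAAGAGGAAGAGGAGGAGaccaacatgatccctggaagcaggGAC
Codons 24 to 47 hold 16 such codons in 24, and the whole coding sequence 24 in 228 (10.5%). In the other 9 genes no window of 24 codons held more than 10, the highest being that of Vldlr.

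Gpihbp1 was at 60.1, 58.3, 69.3 and 69.7 CPM in CTR and at 90.3, 91.5, 79.7 and 90.6 CPM in CAC. The groups did not overlap, and CAC replicate 3 was the lowest of its group. The means were 64.3 ± 5.98 and 88.0 ± 5.57 CPM (SD, n = 4), from 167 to 316 counts per library. The log2 fold change was 0.45 (standard error 0.11, 95% interval 0.22 to 0.68), or 1.37-fold, and the unadjusted p of 0.000619 was the 108th smallest of all genes. With an edgeR adjusted p of 0.0566, the difference did not pass the threshold.

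Gpihbp1 is made by capillary endothelial cells, so its level was set beside 17 endothelial markers. Of these 14 were tested, 8 were higher and 6 lower in CAC, 1 passed the test (Esam, an endothelial adhesion molecule, higher, as were 0.739% of all genes), and the median log2 fold change was 0.04. At an unadjusted p under 0.05 in the edgeR test there were 4 higher and 1 lower (all genes, 7.01% and 5.93%). Summed, they came to 1350 to 1389 CPM in CTR and to 1154 to 1607 CPM in CAC, with nearly equal means of 1375 and 1370 CPM. Divided by this sum, Gpihbp1 was at a log2 ratio of −4.53, −4.57, −4.28 and −4.30 in CTR and of −4.15, −3.95, −4.03 and −3.67 in CAC. The groups were again fully apart. The difference was 0.47 (exact two-sided permutation test, p = 0.0286, the smallest p that 4 against 4 allows). This p was not adjusted with those of the 5 ratios described below. Gpihbp1 alone was already fully apart and the sums had nearly equal means, so the ratio mostly repeats that separation and is no separate result. Egfl7, a protein secreted by endothelial cells, took 68.0% of the sum. Over the geometric mean of the markers, which weights them equally, the difference was 0.26 (exact permutation p = 0.0857).

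**Figure D3:**
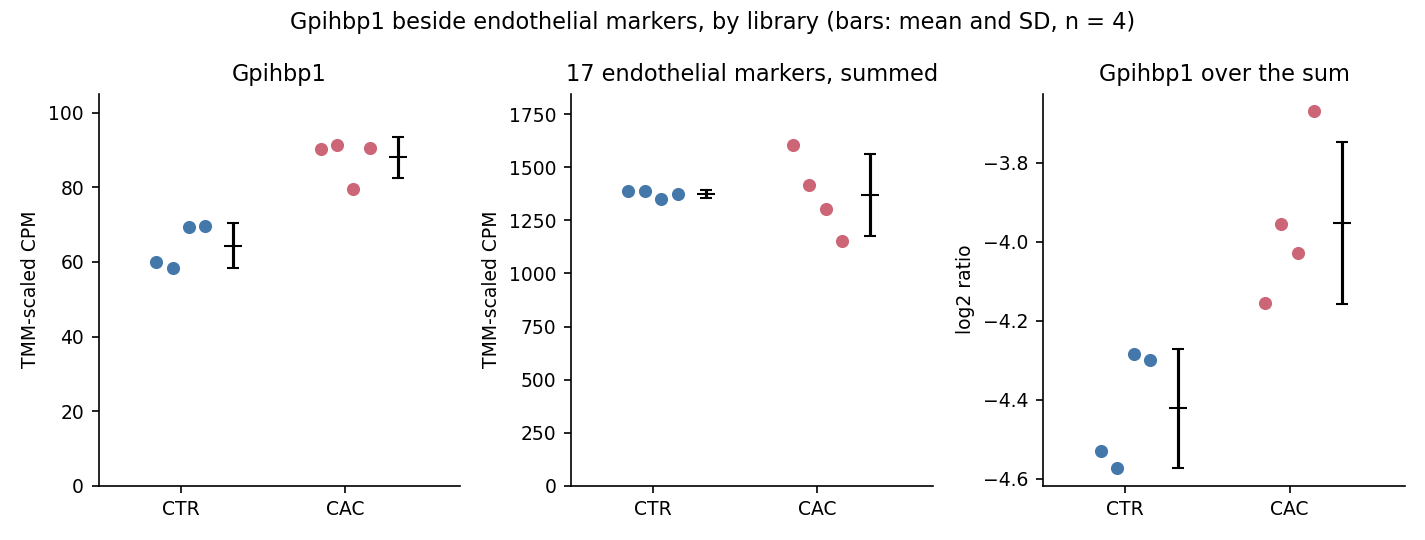
By library, the left panel gives Gpihbp1 and the middle panel the sum of 17 endothelial markers, both in TMM-scaled CPM on axes from 0, and the right panel the log2 of their ratio, with mean and SD (n = 4) beside the points. The 2 groups of points separate in the left and right panels, and in the middle panel the CAC libraries (1154 to 1607 CPM) lie on both sides of the narrow CTR range.

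Angptl4 (ENSMUSG00000002289.17, chr17:33773750-33781830, minus strand), the secreted inhibitor of the lipase, was the most variable of the 10. It was at 78.8, 100.4, 119.5 and 174.8 CPM in CTR and at 133.0, 122.3, 82.9 and 183.4 CPM in CAC. The groups overlapped almost over their whole range, and replicate 4 was the highest library in both. The coefficient of variation was 34.8% in CTR and 31.7% in CAC, against 5.20% from counting alone. The means were 118 ± 41.1 and 130 ± 41.4 CPM, with a log2 fold change of 0.13 and a 95% interval of −0.65 to 0.91, the widest of the 10 (edgeR adjusted p = 0.919). This interval runs from 0.638-fold to 1.88-fold, and so holds changes of that size in both directions.

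Vldlr (ENSMUSG00000024924.15, chr19:27216484-27254231, plus strand), a receptor that takes up triglyceride-rich lipoproteins, was at 81.3, 83.9, 83.4 and 88.6 CPM in CTR and at 58.9, 73.9, 86.7 and 91.0 CPM in CAC. The CTR libraries were close together and the CAC libraries spread to both sides of them, with coefficients of variation of 3.66% and 18.6%. CAC replicate 1 was the lowest, and the mean of CAC was 77.6 ± 14.4 CPM against 84.3 ± 3.09 CPM in CTR. The log2 fold change was −0.11 with a 95% interval of −0.37 to 0.15 (edgeR adjusted p = 0.770), and without CAC replicate 1 it was 0.00.

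Of the genes for entry into the cell, Cd36 (ENSMUSG00000002944.16, chr5:17781690-17888801, minus strand), the fatty acid translocase, had the narrowest interval. It was at 328, 277, 302 and 320 CPM in CTR and at 319, 313, 332 and 340 CPM in CAC. The CAC libraries lay within or just above the CTR range, and the CTR library that stood lowest was replicate 2. The log2 fold change was 0.09 with a 95% interval of −0.10 to 0.28 (edgeR adjusted p = 0.745).

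Slc27a1 (ENSMUSG00000031808.8, chr8:71568882-71587302, plus strand), the transport protein FATP1, was at 19.79, 18.11, 17.84 and 17.64 CPM in CTR and at 21.08, 26.59, 28.42 and 19.87 CPM in CAC. Here too the groups did not overlap, but CAC replicate 4 and CTR replicate 1 were almost equal. The means were 18.35 ± 0.98 and 23.99 ± 4.16 CPM (SD, n = 4), from 39 to 97 counts per library. The log2 fold change was 0.40 (standard error 0.16, 95% interval 0.06 to 0.73), with an unadjusted p of 0.0224 that did not hold after adjustment (edgeR adjusted p = 0.284). The CTR spread of 5.36% was smaller than the 12.8% that counting alone gives at this depth.

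Slc27a4 (ENSMUSG00000059316.3, chr2:29802634-29817522, plus strand), the transport protein FATP4, was at 34.55, 27.96, 28.22 and 34.84 CPM in CTR and at 30.27, 39.88, 25.20 and 36.26 CPM in CAC. Groups overlapped, with both the highest and the lowest library in CAC. CAC differed from CTR by 0.05 on the log2 scale, with a 95% interval of −0.27 to 0.37 (edgeR adjusted p = 0.938). The coding sequences of Slc27a1 and Slc27a4 were identical at 66.2% of 1918 aligned bases, and the longest run they share was 26 bases, shorter than the reads of 75 cycles.

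The cytosolic binding proteins Fabp4 and Fabp3, the adipocyte and the heart type, are close relatives, which matters for counting because reads that match both could be split. The stretches shown are coding bases 23 to 142 of each, counted from 1 at the A of the start codon, and capitals mark the longest run the 2 coding sequences share, at positions 76 to 89.
Fabp3: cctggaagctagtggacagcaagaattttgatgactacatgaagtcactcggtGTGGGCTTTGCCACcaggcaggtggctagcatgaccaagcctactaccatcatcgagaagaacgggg
Fabp4: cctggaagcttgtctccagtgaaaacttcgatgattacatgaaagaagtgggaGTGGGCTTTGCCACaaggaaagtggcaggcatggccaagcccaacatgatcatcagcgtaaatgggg
The shared run is 14 bases long, shorter than the reads of 75 cycles, and 257 of 395 aligned coding bases (65.1%) were identical. Bases outside the coding sequences were not compared, so reads that lie there are not covered.

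Fabp4 (ENSMUSG00000062515.4, chr3:10204088-10208576, minus strand) was at 3946, 3966, 3323 and 3901 CPM in CTR and at 2634, 2699, 3666 and 3796 CPM in CAC. CAC replicates 1 and 2 lay under the CTR range, and CAC replicates 3 and 4 lay inside it, while CTR replicate 3 was the lowest of its group. The means were 3784 ± 308 and 3199 ± 617 CPM (SD, n = 4). The log2 fold change was −0.24 (standard error 0.12, 95% interval −0.48 to 0.00), with an unadjusted p of 0.0505 and an edgeR adjusted p of 0.387.

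Fabp3 (ENSMUSG00000028773.9, chr4:130308595-130315463, plus strand) was at 402, 424, 531 and 507 CPM in CTR and at 524, 357, 328 and 367 CPM in CAC. CAC replicates 2, 3 and 4 lay below every CTR library, and CAC replicate 1 lay near the top of the CTR range. The means were 466 ± 62.8 and 394 ± 88.3 CPM, with a log2 fold change of −0.24 and a 95% interval of −0.53 to 0.05 (edgeR adjusted p = 0.485). Without CAC replicate 1 the log2 fold change was −0.40 and did not pass the test either (edgeR adjusted p = 0.0750).

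The Fabp3 count has a further limit, which is how its reads were told from those of a neighbour. Zcchc17 (ENSMUSG00000028772.20, chr4:130315383-130359943), which codes for a nucleic acid binding protein, lies on the minus strand and shares 81 exon bases with the 3′ end of Fabp3, at chr4:130315383-130315463, or 9.84% of the 823 exon bases of Fabp3. Fabp3 had 1116, 1593, 1281 and 2299 expected counts in CTR and 970, 671, 1120 and 1054 in CAC. Zcchc17 had 1117, 1605, 1293 and 2277 in CTR and 991, 701, 1109 and 1056 in CAC. The Zcchc17 count was thus 99.0 to 104% of the Fabp3 count in every library, and the log2 fold change of Zcchc17 was −0.22 (edgeR adjusted p = 0.542). For none of the other 9 genes did another gene lie within 5% of its count in every library. Zcchc17 was looked at after its values were seen, the strand setting of the counting is not given in the sources used here, and reads of the 2 genes cannot be told apart. The pseudogene Fabp3-ps1 held 3 to 42 counts, at most 2.37% of the Fabp3 count.

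**Figure D4:**
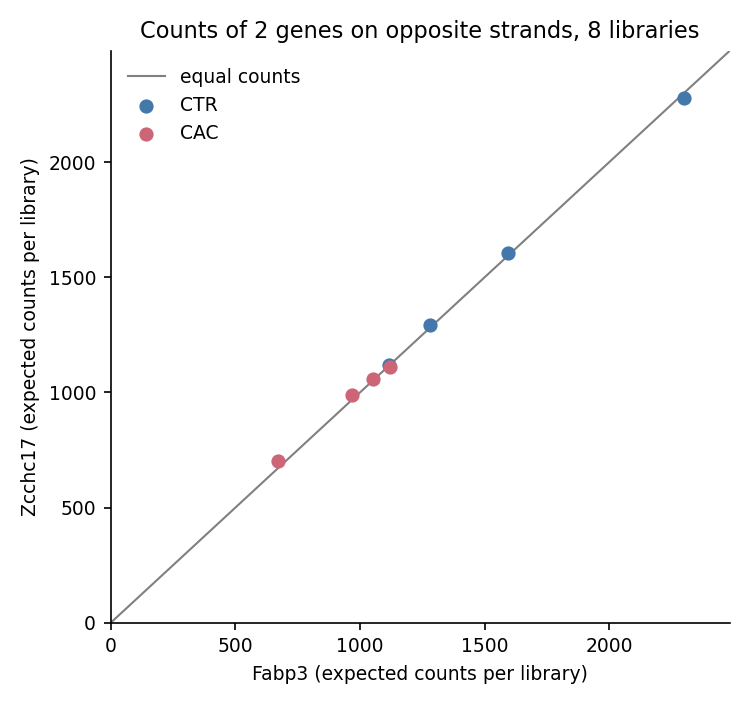
Each point is 1 library, with the expected count of Fabp3 on the x axis and that of Zcchc17, on the opposite strand, on the y axis, and the line marks equal counts. The 4 CTR and 4 CAC libraries all lie on or next to the line, with Zcchc17 at 99.0 to 104% of Fabp3.

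Ratios between genes of the route do not depend on scaling between libraries, and 5 of them were compared by the exact two-sided permutation test, with p-values adjusted over the 5. Gpihbp1 over Lpl, the anchor over the enzyme, was at a log2 ratio of −5.14 ± 0.12 in CTR and −4.88 ± 0.15 in CAC, and 3 of 4 CAC libraries exceeded the highest CTR library (difference 0.26, exact p = 0.0571, adjusted p = 0.286). Slc27a1 over Slc27a4 was at −0.76 ± 0.16 and −0.45 ± 0.44 (difference 0.32, exact p = 0.200, adjusted p = 0.500). Neither passed after adjustment, by which a single ratio of the 5 could not get below 0.143 with 4 against 4 libraries. Lmf1 over Lpl differed by −0.19 (exact p = 0.429), Angptl4 over Lpl by −0.05 (exact p = 0.886) and Fabp3 over Fabp4 by 0.00 (exact p = 1), all with adjusted p from 0.714 to 1.

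Other genes of the route were counted from 4 lists, of which 44 of 70 genes were tested. Among 20 partners and regulators of the lipase, 12 were tested, 5 were higher and 7 lower, and 1 passed the test, with a median log2 fold change of −0.02, beside 0.739% of all genes called higher. At an unadjusted p under 0.05 there were 3 higher and 3 lower (all genes, 12.9%). The gene that passed was Sdc4 (ENSMUSG00000017009.4), a heparan sulfate proteoglycan of the cell surface, of a kind to which the lipase binds, which rose from 10.4 ± 3.88 to 20.1 ± 2.72 CPM (SD, n = 4) with no overlap of the groups. Its log2 fold change was 0.90 (standard error 0.22, edgeR adjusted p = 0.0494), and it lost the call under 4 of 9 other settings and when any library but CTR replicate 4 was left out (adjusted p up to 0.164). Apoe, the apolipoprotein by which remnants are taken up, had levels of 1252 ± 72.2 and 1643 ± 253 CPM, again without overlap (log2 fold change 0.39, edgeR adjusted p = 0.0763). Apoe was called by DESeq2 (adjusted p = 0.0462), which did not call Sdc4 (0.0691), and by edgeR without a filter (0.0104) or without CAC replicate 1 (0.0249), in a range of 0.0104 to 0.231 over all alternatives. In the other direction, Angptl8, which acts with its relatives to inhibit the lipase, was at 23.0 ± 9.55 and 11.1 ± 3.20 CPM (log2 fold change −1.01, edgeR adjusted p = 0.176), and the basement membrane proteoglycan Hspg2 at 27.9 ± 6.85 and 18.4 ± 4.67 CPM (−0.61, adjusted p = 0.151). The alternatives that called Angptl8 included those without a filter (edgeR adjusted p = 7.48e-05) and without CTR replicate 4 (0.0240), in a range of 7.48e-05 to 0.357 over all alternatives.

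Among 14 genes of transcriptional and endothelial control, 13 were tested, 6 were higher and 7 lower, and 1 passed the test, higher in CAC as were 0.739% of all genes (median −0.07). At an unadjusted p under 0.05 there were 3 higher and 2 lower (all genes, 12.9%). This was Flt1 (ENSMUSG00000029648.14), the receptor on endothelial cells for Vegfb and Vegfa, which rose from 52.4 ± 2.80 to 75.3 ± 1.86 CPM, with CTR libraries at 48.5 to 55.2 CPM and CAC libraries at 73.5 to 77.4 CPM. Its log2 fold change was 0.53 (standard error 0.11, edgeR adjusted p = 0.0166). It was not called when CTR replicate 1 (adjusted p = 0.0570), CTR replicate 4 (0.0511) or CAC replicate 3 (0.0556) was left out. Its ligand Vegfb, which is known to act on endothelial fatty acid uptake, was at 221 ± 13.8 and 188 ± 7.92 CPM without overlap, and the difference did not pass the test (log2 fold change −0.24, edgeR adjusted p = 0.274). Pparg, the nuclear receptor that drives adipocyte genes of this route, was at 41.2 ± 15.2 and 25.3 ± 4.95 CPM (−0.71, adjusted p = 0.261), and its relative Ppard at 6.69 ± 1.47 and 9.76 ± 2.61 CPM (0.58, adjusted p = 0.320).

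No gene of the remaining lists passed the test, by edgeR or DESeq2. Of 25 genes for fatty acid entry and activation 13 were tested, 6 were higher and 7 lower (median −0.03, from −0.40 to 0.36), 1 had an unadjusted p under 0.05 (all genes, 12.9%), and Acsbg2, Fabp2, Fabp6 and Fabp7 were at 0 in every library. The smallest p among them were those of Got2, at 35.1 ± 5.80 and 44.1 ± 7.09 CPM, and Cavin1, at 1143 ± 170 and 1259 ± 140 CPM, on the higher side, and of the caveolins Cav1, at 102 ± 14.2 and 86.7 ± 9.90 CPM, and Cav2, at 22.5 ± 8.49 and 16.8 ± 2.79 CPM, on the lower side. Of 11 genes for lipoprotein receptors 6 were tested, 2 were higher and 4 lower (median −0.09), and 1 had an unadjusted p under 0.05 (all genes, 12.9%). The 2 higher were Scarb1, the receptor for high-density lipoprotein, at 43.1 ± 8.26 and 59.4 ± 8.59 CPM (edgeR adjusted p = 0.149), and Mylip, which marks lipoprotein receptors for degradation, at 4.08 ± 1.79 and 5.72 ± 2.51 CPM. Lrp1 was at 27.7 ± 2.52 and 25.1 ± 4.83 CPM and Sorl1 at 65.2 ± 12.8 and 60.3 ± 9.59 CPM, and Lrp2 was at 0 in every library.

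**Figure D5:**
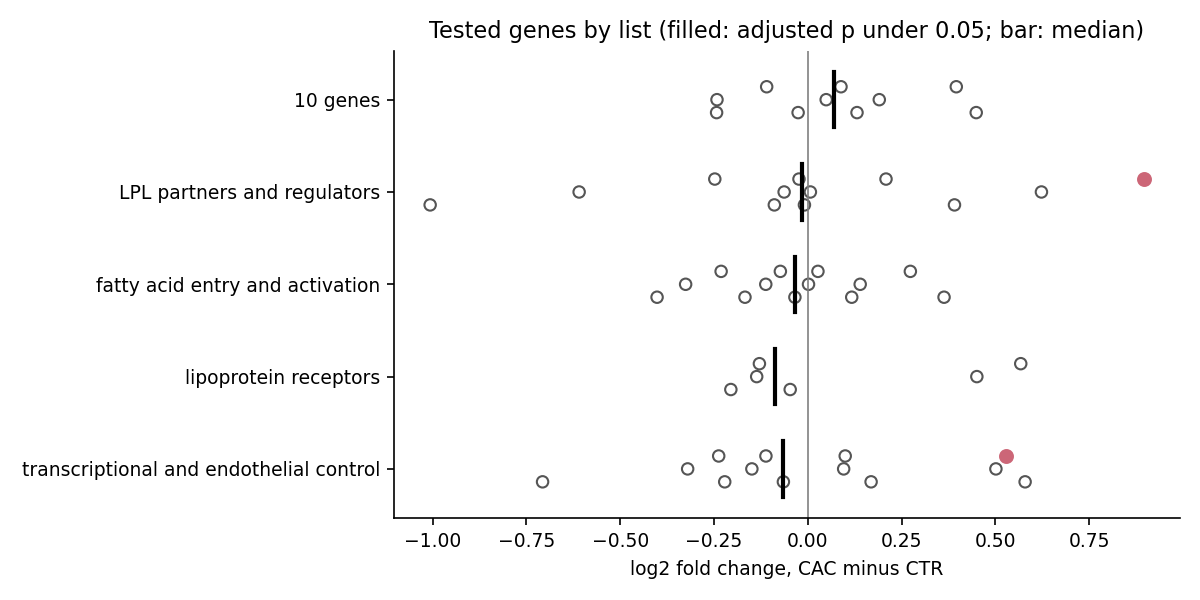
Each point is 1 tested gene on the x axis of log2 fold change, CAC over CTR, sorted into the 10 genes and the 4 lists, with filled points for an adjusted p under 0.05 and a bar at the median. The medians lie between −0.09 and 0.07, and the filled points are Sdc4 (0.90) and Flt1 (0.53).

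The genes whose pattern over the 8 libraries was most like that of Lpl, Gpihbp1, Cd36 and Fabp4 were taken from 1969 genes of at least 50 CPM, by the root mean square (RMS) difference of centred log2 CPM. Nearest to Gpihbp1, whose own SD was 0.25, were Lrg1 (RMS 0.08), Tgm2 (0.08) and Cygb (0.08), and no test is drawn from them, since they were picked for following a gene whose groups were apart. Nearest to Lpl (SD 0.15) were Picalm (0.06), Eif5b (0.07) and Rack1 (0.07). Cd36, with an SD of 0.09, had Mrpl2 (0.03), Zfp106 (0.04) and Gm9843 (0.05) nearest. Fabp4 (SD 0.23) had Rps24 (0.07), H2-D1 (0.08) and Cst3 (0.09) nearest. None of these 12 genes was one of the 10.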

How the data were processed

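RNA from BAT was sequenced with reads of 75 cycles in 8 libraries, 1 per mouse (4 CTR and 4 CAC), and groups were taken from the labels. The authors aligned the reads to mm10 with HISAT2 2.2.1 after quality control with FastQC 0.11.9 (versions per the submitters' processing notes) and counted reads over RefSeq genes with featureCounts and its multi-mapping option, although the rows of the table carry versioned Ensembl gene IDs. The deposited gene table holds expected counts, since 25.1 to 28.4% of non-zero values in a library are not whole, as they are where reads that fit several features are split between them. A second table deposited by the authors holds a signal, the counts without their decimals divided by DESeq2 size factors, and was used only for the limma alternative (mean signal of at least 10, pseudocount 1). The strand setting of the counting is not given in the sources used here.

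Counts were rounded to whole numbers, filtered with filterByExpr, scaled by TMM and tested with edgeR 4.0.16 (quasi-likelihood, 2-sided) in R 4.3.3, with Benjamini-Hochberg adjustment over all 9876 genes tested and a threshold of 0.05. No covariate was used. Intervals are 95% intervals of the edgeR fold change. Ratios of genes, with 0.5 added to each count, were compared by the exact permutation test over 70 assignments. Alternatives were DESeq2 1.42.0, limma 3.58.1, library-size and upper-quartile scaling, other filters, leaving out mitochondrially encoded genes, dropped decimals, the replicate number as a block, and leaving out each library. On simulated counts for this comparison (9646 genes), 71 of 96 genes changed by 1 on the log2 scale, 93 of 95 changed by 2 and 13 of 9455 unchanged genes were called.

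Positions, transcripts and sequences are those of GENCODE M21 on GRCm38, in which 91.4% of the table's gene IDs were found without their version. Lengths are those of 1 coding transcript per gene. Fold changes of low genes are less precise, since counting alone gives them a larger spread.

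The 10 genes and all gene lists were chosen with earlier results of these data known. Named are the 10 genes, the genes of each route list that passed the test or had the 2 smallest p in each direction, the summed level of each cell marker list, and the 3 genes most like Lpl, Gpihbp1, Cd36 and Fabp4. Marker genes that passed, Egfl7, Zcchc17 and Fabp3-ps1 were named after their values were seen.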

Additional observations from a re-analysis of the deposited data

Results flagged for a closer look

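Of 48 groups of 4 libraries that were checked, 4 held 1 library far from the other 3, and chance gives about 1 in 20, or 2.4. In CAC replicate 3, Gpihbp1 stood at 79.7 CPM, below the 90.3 to 91.5 CPM of the rest of its group and still higher than any CTR library. The other 3 concerned CTR replicate 3. Its Fabp4 level of 3323.1 CPM fell short of the 3901 to 3966 CPM seen in CTR replicates 1, 2 and 4. Its log2 ratio of Lmf1 to Lpl was −6.79, above the −7.03 to −6.99 of those libraries, and its summed macrophage markers came to 204.6 CPM, below their 228 to 232 CPM.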

How the results depend on the processing

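None of the 10 genes passed the test in any of 17 alternative fits, 9 with other settings and 8 with a library left out. For Gpihbp1 the other settings gave a log2 fold change of 0.42 to 0.45 (adjusted p from 0.0530 to 0.0774) and leaving out a library 0.40 to 0.50 (adjusted p from 0.0580 to 0.192). Over all genes tested, 92 were called, 351 without a filter on low counts, and from 42 (without CTR replicate 1) to 135 with a library left out, with 60 without CAC replicate 3. The direction turned when a library was left out for Angptl4 (−0.0826 to 0.40), Slc27a4 (−0.0473 to 0.17), Lmf1 (−0.13 to 0.0796), Vldlr (−0.19 to 0.00254, without CAC replicate 1), and the log2 ratios of Fabp3 to Fabp4 (−0.23 to 0.16) and Angptl4 to Lpl (−0.17 to 0.15). Values that no fit called moved by over 1.5 times without 1 library for Cd36 (0.04 without CTR replicate 2), Fabp4 (−0.15 without CAC replicate 1), Fabp3 (−0.40 without CAC replicate 1), Cav2 (−0.09 without CTR replicate 2) and the log2 ratios of Slc27a1 to Slc27a4 (0.11 without CAC replicate 3) and Lmf1 to Lpl (−0.05 without CAC replicate 4, −0.34 without CAC replicate 1), among others. Of the partners and regulators of the lipase 1 was called, 0 with upper-quartile scaling, with at least 10 counts in every library or with decimals dropped, 4 without a filter (Angptl8, Apoe, Hspg2 and Sdc4), and 0 to 2 with a library left out. Of the transcriptional and endothelial control genes 1 was called, 3 without a filter (Flt1, Ppara and Pparg) and 0 to 1 with a library left out, the 1 being Ppara in place of Flt1 without CTR replicate 4. With a library left out the median ran from 0.01 to 0.13 for the 10 genes, from −0.07 to 0.04 for the lipase partners, from −0.07 to 0.00 for fatty acid entry, from −0.13 to 0.0315 for the lipoprotein receptors and from −0.10 to 0.05003 for the control genes, so that the median of each of the 4 lists turned sign and that of the 10 genes did not. The difference of Gpihbp1 over the endothelial sum was 0.26 over their geometric mean (exact permutation p = 0.0857) and 0.38 to 0.54 with a library left out (p = 0.0571, the smallest that 4 against 3 allows). The causes of these shifts were not tested.

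CTR and CAC libraries share replicate numbers, but same-numbered libraries did not deviate together (r from −0.02 to 0.04 across genes, with 0 of 4 pairs over 0.1, and 2 of 4 CTR libraries closest to the CAC library of their own number), so the numbers do not pair the mice. With the replicate block 140 genes were called in all, 2 of the lipase partners and regulators (Sdc4, and Angptl8 with adjusted p = 0.00882), and 0 of the 10, and the difference of Gpihbp1 over the endothelial sum had a paired exact permutation p of 0.125 (difference 0.47), the smallest that 4 pairs allow.

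Depth limits Lmf1 and Slc27a1 most, at under 100 counts in every library. The study used male or female mice without the labels giving the sex of each, and a split by sex was not analysed here.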
